A study of Mus musculus with 48 samples.

Results

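Mertk, its fellow TAM receptors Axl and Tyro3, their ligands Gas6 and Pros1, and the engulfment genes Megf10, Mfge8 and Gulp1 were followed in primary cultures of mouse striatal astrocytes and neurons exposed to steroids. The genes were chosen by name, and each is measured by every array probe annotated to its symbol. All 8 genes had a probe, which gave 15 of the 46174 probes on the array and 8 of the 22451 gene symbols it carries. Mertk, Axl and Mfge8 had 2 probes each, Megf10 and Gulp1 had 3 each, and Tyro3, Gas6 and Pros1 had 1 each.

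The study profiled messenger RNA with Illumina mouse bead arrays in 12 groups of 4 cultures, described as independent biological replicates. Astrocytes and neurons received dexamethasone at 100 nM, or aldosterone, progesterone, dihydrotestosterone or estradiol at 200 nM, or the ethanol vehicle alone, all for 4 h. Every culture came from C57BL/6J mice and was kept without supplements before treatment. Astrocytes were isolated with beads against the surface protein GLAST from the brains of young pups, and neurons were grown from embryonic striatum, so the cell types also differ in the age of the donor animals and in how they were cultured. Neither preparation is pure, and the RNA of a culture is the sum over its cells, so that fewer cells of a type and less RNA per cell cannot be told apart. Intensities are on a log2 scale, where a difference of 1 is a doubling. p-values below reflect only the spread among these cultures.

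Phagocytic cells find their targets by phosphatidylserine, a lipid that dying cells and some synapses expose on the outer face of the membrane. Gas6 and Pros1 (protein S) bind that lipid and bridge it to the receptor kinases Tyro3, Axl and Mertk, while Mfge8 bridges it to integrins. Megf10 is an engulfment receptor of astrocytes, which acts beside Mertk when astrocytes take up synapses, and Gulp1 is an adaptor protein that binds the tails of such receptors. Mertk is also made by microglia and macrophages, where glucocorticoids are known to raise it and to increase the uptake of dying cells. Dexamethasone is a synthetic agonist of the glucocorticoid receptor, and aldosterone is the natural agonist of the mineralocorticoid receptor.

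The promoters of the TAM receptors are shown because 1 of these genes responded to steroids and the other two did not pass the test. Each window is the 250 bases before the annotated start in RefSeq on mouse build GRCm38.p6, read 5′ to 3′ on the gene's own strand, and capitals mark the GC box GGGCGG or its reverse complement. The Mertk window is chr2:128698665-128698914 on the plus strand, the Axl window is chr7:25788734-25788983 on the minus strand, and the Tyro3 window is chr2:119799264-119799513 on the plus strand.
Mertk: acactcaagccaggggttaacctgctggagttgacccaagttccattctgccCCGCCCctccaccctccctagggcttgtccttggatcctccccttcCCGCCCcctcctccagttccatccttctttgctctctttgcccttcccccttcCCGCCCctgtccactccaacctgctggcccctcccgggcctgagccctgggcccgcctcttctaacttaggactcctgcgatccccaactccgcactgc
Axl: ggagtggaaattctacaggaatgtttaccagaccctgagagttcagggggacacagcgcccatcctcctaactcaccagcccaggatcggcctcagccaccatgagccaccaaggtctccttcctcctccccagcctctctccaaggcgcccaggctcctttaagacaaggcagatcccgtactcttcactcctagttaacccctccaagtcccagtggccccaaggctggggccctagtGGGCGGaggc
Tyro3: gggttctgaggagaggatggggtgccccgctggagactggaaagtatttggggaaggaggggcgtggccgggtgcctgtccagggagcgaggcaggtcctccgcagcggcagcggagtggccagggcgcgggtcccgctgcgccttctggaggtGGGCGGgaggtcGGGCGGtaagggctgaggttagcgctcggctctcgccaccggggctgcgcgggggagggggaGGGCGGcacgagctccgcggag
The Mertk window held 3 GC boxes, the Axl window 1 and the Tyro3 window 3. A GC box was found in 32.7% of 32851 mouse promoter windows of the same length. Neither the glucocorticoid response element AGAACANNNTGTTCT nor its half-site AGAACA was in the windows of Mertk, Axl or Tyro3, on either strand. The full element was in 0.00913% of all windows and the half-site, which is part of it, in 16.1%. The LXR element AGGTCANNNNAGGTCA (in 0.0152% of all windows), the TATA box TATAAA (12.4%) and the AP-1 site TGANTCA (6.75%) were also not in these 3 windows. The letters searched for are a description of these 250 bases only.

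The preparations carried the markers of their labelled type, beside markers of other cell types. All 8 astrocyte markers were higher in astrocytes than in neurons with vehicle, and the summed astrocyte marker level was 18.08 to 18.37 in the 24 astrocyte arrays, against 16.10 to 16.79 in the neuron arrays. Of 8 neuron markers, 6 were lower in astrocytes, while Snap25 and Gad2 had means under 7.5 in both cell types. The summed neuron markers were 16.04 to 16.33 in neurons, against 13.11 to 13.75 in astrocytes. All 11 microglia markers were higher in astrocytes, where none had a mean under 7.5, with a summed level of 16.30 to 16.66 in astrocytes, against 12.50 to 13.75 in neurons. Of 7 oligodendrocyte lineage markers measured, 4 were lower in astrocytes and none higher. Their summed level was 14.22 to 14.97 in astrocytes, against 15.20 to 15.58 in neurons. Of 8 vessel and meningeal markers, 3 were higher and 2 lower in astrocytes. Their summed level was 11.17 to 12.48 in astrocytes, against 12.64 to 13.04 in neurons. The array medians lay between 7.10 and 7.16, and 61.1% of probes had a mean under 7.5, a level used here to mark dim readings.

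A pair of neuron arrays stood against their labels for Fkbp5 and was left out. For Fkbp5, a co-chaperone gene induced by the glucocorticoid receptor, the left-out library labelled dexamethasone read 9.85, against 10.50 to 10.85 in the other dexamethasone neurons, and the left-out library labelled vehicle read 10.64, against 9.78 to 9.81 in the other vehicle neurons. Tsc22d3 and Per1, the other label-check genes, placed only the library labelled vehicle clearly against its label. It read 12.84 and 11.06 for them, against 11.56 to 12.03 and 10.41 to 10.56 in the other vehicle neurons. The library labelled dexamethasone read 12.31 and 10.79, above those vehicle neurons. The other dexamethasone neurons read 12.43 to 12.83 and 10.95 to 11.12. Both left-out libraries carried number 3. The groups of dexamethasone and vehicle neurons therefore held 3 arrays each, and 46 arrays in all entered the fit. This omission widens the difference between those groups for any gene that follows Fkbp5. For Mertk comparisons that use neurons, and where a call or direction changed, the value with all 48 arrays is therefore given beside the result. Differences within astrocytes keep their size with all 48 arrays, but their p-values share a spread with the neuron arrays. Not all of those p-values are given for both settings.

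Dexamethasone raised Mertk in astrocytes. The brighter Mertk probe (ILMN_2714638) read 12.24, 12.34, 12.24 and 12.31 with dexamethasone, against 10.78, 10.81, 10.67 and 10.84 with vehicle. Every dexamethasone array was above every vehicle array, as for 4.02% of all probes. The difference was 1.51 ± 0.12 on the log2 scale (SE, n = 4 each; 95% interval 1.27 to 1.74), a 2.84-fold higher level, with a limma adjusted p of 4.5e-14. Mertk was the 1 member probe of 15 that rose and none fell, beside 1.95% of all probes called higher and 3.55% called in either direction. By p-value it ranked 114 of 46174 probes. Over the same arrays the summed astrocyte markers were 18.13 to 18.21 with dexamethasone and 18.19 to 18.27 with vehicle, and the summed microglia markers were 16.37 to 16.45 with dexamethasone and 16.30 to 16.39 with vehicle. The summed neuron markers were 13.63 to 13.75 with dexamethasone and 13.11 to 13.45 with vehicle, where Ppp1r1b, the striatal phosphoprotein DARPP-32, rose by 2.25 and Gad1 was called lower. Within the microglia list, Cx3cr1 fell by 1.04 and P2ry12 fell by 0.58 while C1qb rose by 0.59. Their part in the Mertk result was not tested.

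Aldosterone also raised Mertk in astrocytes. The brighter probe read 11.81, 11.96, 11.65 and 11.66 with aldosterone, all above the vehicle arrays, as for 2.8% of all probes. The difference from vehicle was 0.99 ± 0.12 (SE, n = 4 each), or 1.99-fold, with a limma adjusted p of 7.8e-08. The methods' t-test gave an adjusted p of 0.0366, which ends the call. It was again the 1 member probe called, beside 0.472% of all probes called higher, and it ranked 42 by p-value. The summed microglia markers were 16.53 to 16.66 with aldosterone, which lay above the 16.30 to 16.39 with vehicle, and Ppp1r1b of the neuron list rose by 0.79. Their part in the result was not tested.

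Progesterone left Mertk at the edge of the threshold in astrocytes. The brighter probe read 11.28, 11.43, 11.36 and 11.44 with progesterone, with no overlap with vehicle, as for 1.85% of all probes. The difference was 0.60 ± 0.12 (SE, n = 4 each), or 1.52-fold, and its limma adjusted p of 0.0104 was just over the FDR of 0.01. Blocking on the replicate number gave the same difference a limma adjusted p of 0.00039. No member probe was called in the fit without the block, beside 0.052% of all probes called higher. The summed microglia markers were 16.42 to 16.61 with progesterone, which lay above the 16.30 to 16.39 with vehicle. Their part in the Mertk difference was not tested.

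Dihydrotestosterone and estradiol gave smaller Mertk differences in astrocytes that did not pass the test. The readings were 11.07, 11.15, 11.01 and 10.94 with dihydrotestosterone, and 11.11, 11.15, 10.97 and 10.90 with estradiol. Every one of these 8 arrays was above the highest vehicle array at 10.84, a separation that 1.66% of all probes showed for dihydrotestosterone and 1.59% for estradiol. The differences from vehicle were 0.27 (95% interval 0.03 to 0.50) for dihydrotestosterone and 0.26 (0.02 to 0.49) for estradiol. Their limma adjusted p-values were 0.63 and 0.74 in the same order, and no probe of any gene was called in either comparison. An unadjusted p under 0.05 was found for 3375 and 2937 probes. If no probe differed, a share near 0.05 of the 46174 probes would fall there on average. The summed microglia markers were 16.44 to 16.57 with dihydrotestosterone and 16.41 to 16.56 with estradiol, both above the 16.30 to 16.39 with vehicle. Their part in the Mertk differences was not tested.

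**Figure D1:**
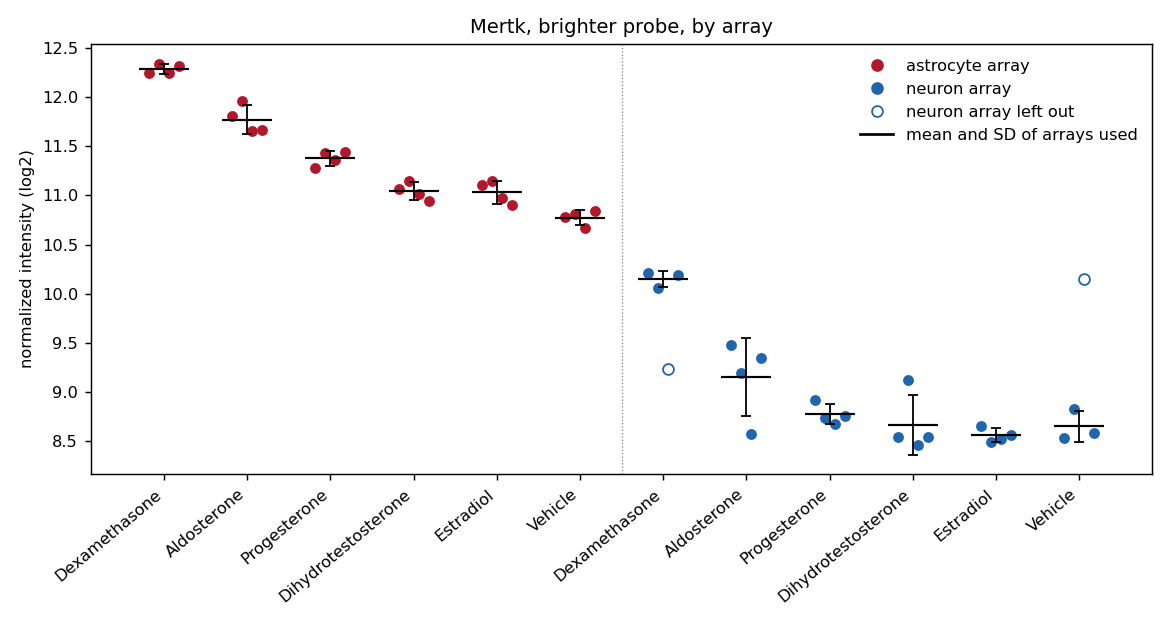
Normalized log2 intensity of the brighter Mertk probe on every array, by cell type and treatment. Points are arrays, bars the mean and SD of the arrays used, and hollow points the neuron arrays left out. Astrocytes stand at 12.24 to 12.34 with dexamethasone and 10.67 to 10.84 with vehicle, and the left-out vehicle neuron array at 10.15 lies among the dexamethasone neurons.

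Mertk also rose in neurons with dexamethasone on the arrays used, at lower levels than in astrocytes. The brighter probe read 10.21, 10.06 and 10.19 with dexamethasone, against 8.54, 8.83 and 8.59 with vehicle, and the groups did not overlap, as for 3.85% of all probes in this direction. The difference was 1.50 ± 0.14 (SE, n = 3 each; 95% interval 1.23 to 1.77), or 2.83-fold, with a limma adjusted p of 1.3e-10. Few probes moved in neurons, and 0.0931% of all probes were called higher. Mertk ranked 7 by p-value and 6 by size of the difference. With the 2 left-out arrays under their labels (9.24 with dexamethasone and 10.15 with vehicle) the difference was 0.90 and its limma adjusted p 0.20, so the call rests on leaving them out. The methods' t-test gave an adjusted p of 0.261 without them. The summed astrocyte markers were 16.37 to 16.79 in dexamethasone neurons and 16.20 to 16.53 in vehicle neurons, and 1 of the 8 astrocyte markers, Aldoc, rose by 0.53. Their part in the Mertk result was not tested.

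The size of the dexamethasone effect on Mertk was nearly equal in both cell types on the arrays used. The effect in astrocytes minus that in neurons was 0.01 (95% interval -0.35 to 0.37), with a limma adjusted p of 0.999, and with all 48 arrays it was 0.61 with an adjusted p of 0.456. None of the 15 member probes was called in this comparison, beside 1% of all probes in either direction. Most probes that rose in astrocytes did not have such a pair of values. The 900 probes higher with dexamethasone in astrocytes had a median difference of 0.07 in neurons (quartiles -0.02 and 0.16), and 6 of them, Mertk included, reached the Mertk value there. Of the 43 probes called higher in neurons, 35 were also called higher in astrocytes. The left-out arrays are from neurons alone, so these neuron values share the omission described above.

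Aldosterone in neurons gave a Mertk difference that turned on a single array. The brighter probe read 9.48, 9.20, 8.58 and 9.35 with aldosterone, so that array 3 lay among the vehicle values and the other 3 above them. The difference from vehicle was 0.50 ± 0.13 (SE, n = 4 and 3), with a limma adjusted p of 0.999. Without aldosterone array 3 it was 0.69 with an adjusted p of 0.0019, a setting that was looked at because that array stood apart. With the replicate block it was 0.57 with an adjusted p of 0.0334, and with all 48 arrays it was 0.12. Fkbp5 in aldosterone neurons read 9.57 on array 3, against 9.71 to 9.81 on the others and 9.78 to 9.81 with vehicle, so it does not tell aldosterone arrays from vehicle ones and the label of array 3, which carries the number of the left-out pair, was not checked by it. In this comparison 0.00217% of all probes, a single one, were called. The aldosterone effect in astrocytes minus that in neurons was 0.50 for Mertk (95% interval 0.15 to 0.84), with a limma adjusted p of 0.566, and with all 48 arrays it was 0.87. No member probe was called for that difference, beside 0.119% of all probes.

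Progesterone, dihydrotestosterone and estradiol left Mertk within the vehicle range or close to it in neurons. Progesterone neurons read 8.92, 8.74, 8.68 and 8.76, and estradiol neurons 8.66, 8.49, 8.53 and 8.57. Dihydrotestosterone neurons read 8.55, 9.12, 8.46 and 8.55, where array 2 was above every vehicle array used. The differences from vehicle were 0.12, 0.02 and -0.09 for progesterone, dihydrotestosterone and estradiol in turn. With all 48 arrays they were -0.25, -0.36 and -0.46, so the first 2 changed direction. No probe of the array was called in any of these 3 comparisons in limma, where 1081, 1084 and 1226 probes had an unadjusted p under 0.05. Each count is below the share of 0.05 of the 46174 probes that would fall there on average if no probe differed.

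**Figure D2:**
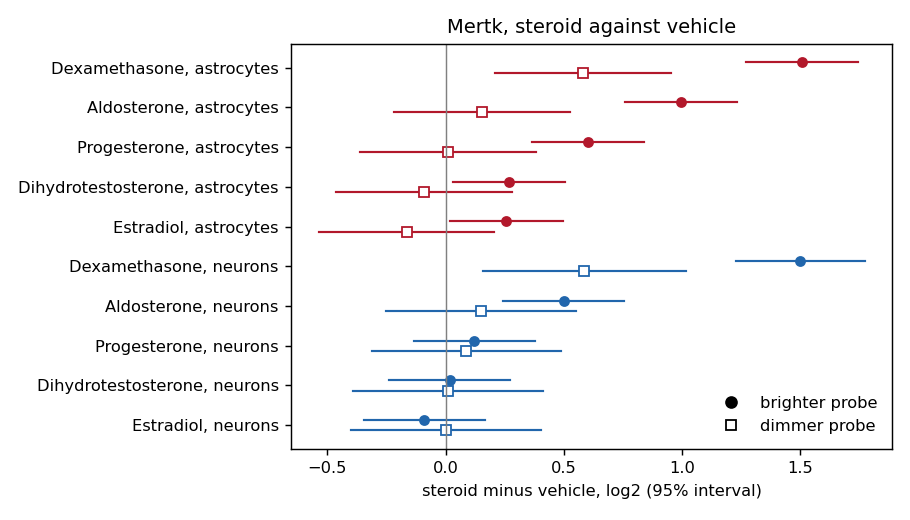
Steroid minus vehicle for both Mertk probes, in log2 units with 95% intervals, for 5 steroids in each cell type. The brighter probe stands at 1.51 and 0.99 for dexamethasone and aldosterone in astrocytes and at 1.50 for dexamethasone in neurons, and the dimmer probe lies nearer to 0.

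The second Mertk probe (ILMN_2491355) was dim and noisier. It read 8.04, 7.98, 9.04 and 8.36 in dexamethasone astrocytes, against 7.69, 7.86, 7.66 and 7.88 in vehicle astrocytes. The difference was 0.58 ± 0.18 (SE, n = 4 each), with a limma adjusted p of 0.052 without the replicate block and 0.00096 with it. In neurons its dexamethasone difference was 0.59 with an adjusted p of 0.999 (0.26 with all 48 arrays), and with aldosterone in astrocytes it was 0.15 with an adjusted p of 0.847. The SD within groups of this probe was 0.31 over astrocyte arrays, against 0.10 for the brighter one, and no difference was called on it in the fit without the block for these 3 comparisons.

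Among the steroids given at the same dose, 6 pairs were compared in astrocytes for Mertk. Aldosterone, a corticosteroid with an aldehyde on the steroid frame, exceeded dihydrotestosterone, an androgen, by 0.73 ± 0.12 (SE, n = 4 each; limma adjusted p = 9.4e-05). It exceeded estradiol, an estrogen with an aromatic ring, by 0.74 (95% interval 0.50 to 0.97; limma adjusted p = 7.1e-05). Mertk was the 1 member probe called in each of these, beside 0.312% of all probes called higher than with dihydrotestosterone and 0.318% higher than with estradiol. Both calls were lost with all 48 arrays (limma adjusted p = 0.0813 and 0.073 in that order) and with the methods' t-test (adjusted p = 0.0963 and 0.12). Aldosterone was above progesterone by 0.39 (95% interval 0.16 to 0.63) with an adjusted p of 0.345. Progesterone was above dihydrotestosterone by 0.33 (0.10 to 0.57) and above estradiol by 0.34 (0.11 to 0.58), and both had an adjusted p of 0.998. In these 3 pairs the arrays did not overlap, as in 1.39%, 1.05% and 1.02% of all probes, yet the test was not passed, and 0.156%, 0.026% and 0.0217% of all probes were called in either direction. Dihydrotestosterone and estradiol overlapped and differed by 0.01 (-0.23 to 0.25). Dexamethasone was given at another dose, so its 12.24 to 12.34 stands beside the 11.65 to 11.96 of aldosterone without a test.

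Ordered by mean level, the 6 astrocyte groups all stood above the 6 neuron groups for Mertk. From the top the order was dexamethasone, aldosterone, progesterone, dihydrotestosterone, estradiol and vehicle in astrocytes, then dexamethasone, aldosterone, progesterone, dihydrotestosterone, vehicle and estradiol in neurons. Neighbours did not overlap except dihydrotestosterone and estradiol in astrocytes and the neuron groups from aldosterone downward.

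Astrocytes and neurons differed at every one of the 8 genes with vehicle. The brightest probe was higher in astrocytes for 6 genes and lower for 2, and among probes 8 were higher and 3 lower, beside 16.2% of all probes called higher and 16.2% lower. The 4 probes not called were the remaining Axl probe, 1 of the 3 Megf10 probes and 2 of the 3 Gulp1 probes, which read no more than 7.41 on any array used. With all 48 arrays 10 probes were called, as the dimmer Mertk probe no longer was (0.39, against 0.72 on the arrays used). As given above, astrocyte and microglia markers were higher in astrocytes in this comparison. Of the neuron markers 6 of 8 were lower in astrocytes, and of the oligodendrocyte lineage markers 4 of 7, while vessel and meningeal markers moved both ways. The part of these markers in the member values was not tested, and culture and donor age cannot be told apart from cell type.

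Among the receptors, Axl showed the wider gap. The brighter Axl probe (ILMN_2651715) read 14.59, 14.24, 13.96 and 14.03 in vehicle astrocytes, against 11.18, 11.18 and 10.95 in vehicle neurons, a difference of 3.10 ± 0.17 (SE; limma adjusted p = 4.8e-21). Mertk was higher in astrocytes by 2.12 ± 0.13 (adjusted p = 8.5e-20), a 4.35-fold difference, and by 1.75 with all 48 arrays. Tyro3 (ILMN_2449917), the TAM receptor best known from neurons, ran the other way. It read 7.94, 7.84, 7.65 and 7.80 in vehicle astrocytes, against 8.32, 8.55 and 8.34 in vehicle neurons, a difference of -0.60 ± 0.11 (adjusted p = 2.0e-05).

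The bridging ligands were both higher in astrocytes. Pros1 (ILMN_1235499) read 13.06, 13.10, 13.07 and 12.89 in vehicle astrocytes, against 8.93, 9.17 and 9.22 in vehicle neurons, which made the 3.92 ± 0.10 between them (SE; limma adjusted p = 2.9e-34) the widest of the 15 probes. Gas6 (ILMN_2686327) read 14.25, 13.92, 13.61 and 13.75 in vehicle astrocytes, against 11.76, 11.89 and 11.84 in vehicle neurons, a difference of 2.05 ± 0.12 (adjusted p = 1.2e-19). Mfge8 was lower in astrocytes on both of its probes. The brighter one (ILMN_3133448) read 13.89, 13.91, 13.54 and 13.85 in vehicle astrocytes, against 15.83, 16.23 and 16.25 in vehicle neurons, a difference of -2.31 ± 0.10 (adjusted p = 1.3e-24), and the other gave -2.26.

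Megf10 and Gulp1, the engulfment receptor and the adaptor, were higher in astrocytes. Megf10 (ILMN_2689931) read 12.02, 11.85, 11.68 and 12.05 in vehicle astrocytes, against 10.14, 10.19 and 10.02 in vehicle neurons, a difference of 1.78 ± 0.11 (SE; limma adjusted p = 4.4e-19), and ILMN_2840286 gave 1.90. Gulp1 (ILMN_2607397) read between 8.94 and 9.04 in the 4 vehicle astrocyte arrays, against 7.46, 7.35 and 7.13 in vehicle neurons, all under 7.5. Set against 7.5 it was at least 2.81-fold higher in astrocytes (adjusted p = 3.0e-17 in the fit).

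**Figure D3:**
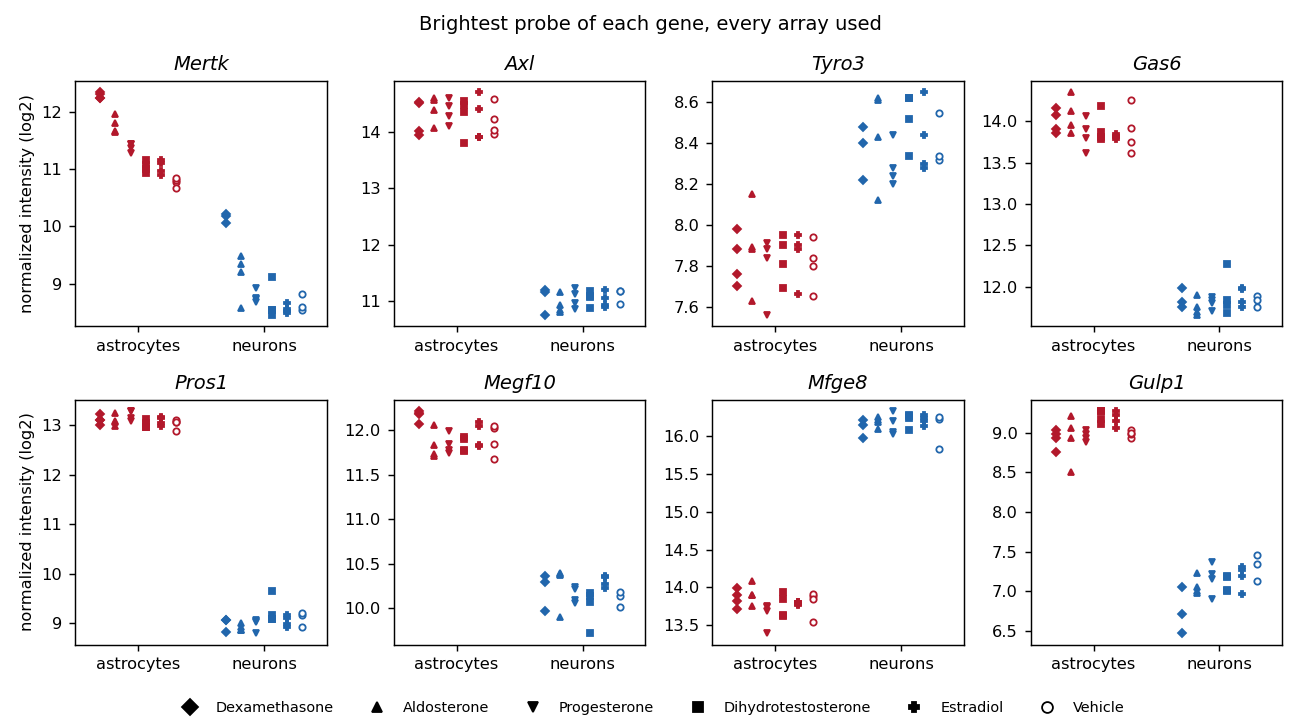
Normalized log2 intensity of the brightest probe of each of the 8 genes on all 46 arrays used, astrocytes on the left and neurons on the right of each panel, with a marker for each treatment. Each panel has its own axis, so levels compare between cell types and not between genes. Astrocytes are higher in 6 panels and lower in those of Tyro3 and Mfge8, and Mertk is the one gene with a steroid difference past the test in astrocytes.

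Outside Mertk no member probe passed the test for any steroid against vehicle. In astrocytes with dexamethasone the other 14 probes had differences of -0.15 to 0.58, and the median over the brightest probes of the 8 genes was 0.07, against -0.01 over all probes. With aldosterone in astrocytes the other 14 lay between -0.17 and 0.32. In neurons with dexamethasone they lay between -0.57, on a Gulp1 probe under 7.5, and 0.59, with a median over the brightest probes of -0.01.

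Axl, Gas6 and Pros1 did not pass the test against vehicle under any steroid. Axl differed by 0.05 with dexamethasone and 0.21 with aldosterone in astrocytes. Its astrocyte readings followed the replicate number instead, since all 6 arrays of number 1 and all 6 of number 2 lay above their group means (by 0.25 and 0.21 on average), whereas 1 of 6 arrays of number 3 and 0 of 6 of number 4 did. Gas6 in astrocytes showed a like pattern. Above their group means lay 5 of 6 arrays of number 1, 5 of 6 of number 2, 1 of 6 of number 3 and 0 of 6 of number 4. For the brighter Mertk probe in astrocytes, 6 of 6 arrays of number 2 and 0 of 6 of number 3 lay above. The replicate number coincides with the bead chip. Gas6 differed from vehicle by 0.12 with dexamethasone and 0.19 with aldosterone in astrocytes, and Pros1 by 0.08 and 0.06 for the same steroids. With progesterone the astrocyte means were 14.365 for Axl and 13.198 for Pros1, against 14.205 and 13.030 with vehicle. In neurons the Pros1 means ran from 8.913 with aldosterone to 9.255 with dihydrotestosterone, against 9.107 with vehicle. Over the 24 astrocyte arrays Pros1 spanned 12.89 to 13.29 and Gas6 spanned 13.61 to 14.35.

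Megf10 came nearest to a second call in astrocytes. Its probe ILMN_2840286 read 11.99, 12.23, 12.08 and 12.21 with dexamethasone, against 11.93, 11.62, 11.71 and 11.90 with vehicle. The groups did not overlap, as for 4.02% of all probes in this direction. The difference was 0.34 ± 0.09 (SE, n = 4 each) with a limma adjusted p of 0.02. With the replicate block the adjusted p was 0.0068, and 3 member probes were then called with dexamethasone in astrocytes, both Mertk probes among them. The brighter Megf10 probe read 12.18, 12.22, 12.07 and 12.19 with dexamethasone, which was 0.27 above vehicle with an adjusted p of 0.159. The third Megf10 probe read 7.36 or lower on every array.

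Gulp1 in neurons was too dim for a size of difference. The brighter probe read 6.47, 6.71 and 7.05 with dexamethasone, against 7.46, 7.35 and 7.13 with vehicle. All of these lay under 7.5. The groups did not overlap, as in 8.07% of all probes, and the limma adjusted p was 0.0267. With single arrays left out the adjusted p ranged from 0.0034, without dexamethasone array 4, to 0.691, and with all 48 arrays it was 0.201. Tyro3 moved by 0.02 and -0.04 with dexamethasone in astrocytes and neurons in turn, and the brighter Mfge8 probe by 0.06 and 0.01.

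**Figure D4:**
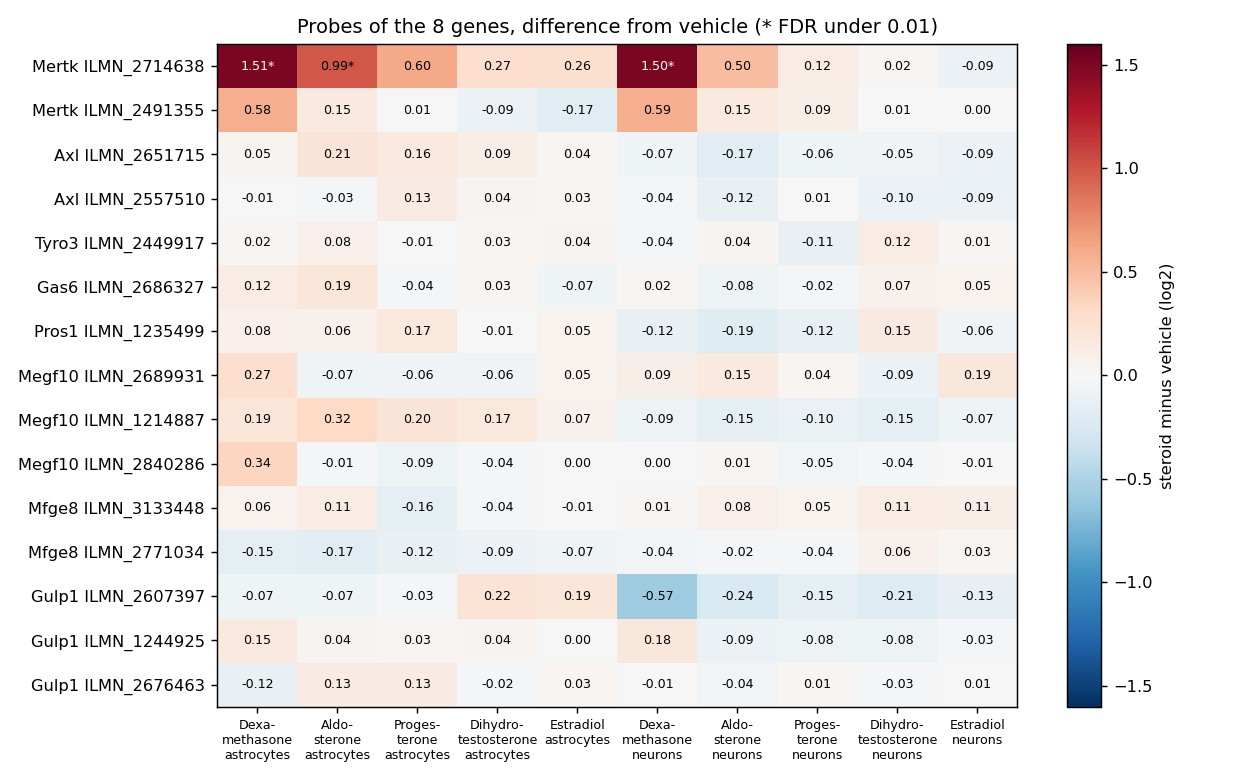
Steroid minus vehicle in log2 units for the 15 probes of the 8 genes, in 5 comparisons in astrocytes and 5 in neurons, with an asterisk where the limma FDR was under 0.01. The asterisks fall on the brighter Mertk probe alone, at 1.51 and 0.99 in astrocytes and 1.50 in neurons.

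An array of dihydrotestosterone neurons stood apart for several members. On array 2 Pros1 read 9.66 and Gas6 12.28, each above the other 21 neuron arrays used, which reached 9.22 and 11.98 for these genes. The brighter Megf10 probe went the other way there, at 9.72, against 9.90 to 10.40 on the other neuron arrays. Megf10 probe ILMN_2840286 did not, at 9.86 within the 9.66 to 10.11 of the others. The dim Megf10 probe read 6.84, against 6.86 to 7.19. On the same array 8 of 11 microglia markers were above all other neuron arrays, with a summed level of 13.75, against at most 12.88 on the others. Trem2 read 11.88 there and Cd68 11.48, against at most 10.74 and 10.36 elsewhere in neurons. The part of the microglia markers in these member values was not tested.

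Among other engulfment genes, a few rose with dexamethasone in astrocytes and most did not pass the test. Of 24 receptors and opsonins measured, 2 rose and 1 was called lower, beside 1.95% of all probes called higher and 3.55% called in either direction, and the median difference was 0.02 against -0.01 over all probes. Stab1, a scavenger receptor that binds phosphatidylserine, was at 12.43 ± 0.14 with dexamethasone and 11.57 ± 0.10 with vehicle (SD, n = 4 each), a difference of 0.85 (limma adjusted p = 5.1e-10). C1qb, a chain of the complement protein that tags targets for uptake and a gene of microglia, rose by 0.59 (adjusted p = 0.0047). Tulp1, described as an eat-me ligand of Mertk, is the 1 called lower (adjusted p = 0.00048), but it averaged 6.73 with dexamethasone and 7.16 with vehicle, both under 7.5.

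Of 19 signaling genes measured, 3 rose and none fell, beside 1.95% of all probes called higher, and the median difference was 0.09. Pik3r1, the regulatory subunit of PI3 kinase, was at 13.88 ± 0.19 with dexamethasone and 12.85 ± 0.07 with vehicle (SD, n = 4 each), a difference of 1.03 (limma adjusted p = 7.6e-12). Vav3, an exchange factor for Rac, rose by 0.59 and Elmo1, which activates Rac together with Dock proteins, rose by 0.49 (adjusted p = 0.0015 and 0.0012 for these). Of 13 phagosome and lysosome genes, 2 rose and none fell, beside the same 1.95%. Ctsl, the lysosomal protease cathepsin L, rose by 1.25 (adjusted p = 2.1e-11) and Becn1, an autophagy protein, by 0.38 (adjusted p = 0.0081). None of 8 nuclear receptors named as regulators of this pathway, the glucocorticoid receptor gene Nr3c1 among them, was called.

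With aldosterone in astrocytes Stab1 and Pik3r1 passed among these genes, beside 0.472% of all probes called higher. Stab1 rose by 0.62 (limma adjusted p = 1.1e-05) and Pik3r1 by 0.60 (adjusted p = 3.7e-05), and Ctsl was 0.52 above vehicle with an adjusted p of 0.0126. None of the listed genes was called with progesterone in astrocytes or with dexamethasone in neurons, where Stab1 differed by 0.46 with an adjusted p of 0.0389.

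**Figure D5:**
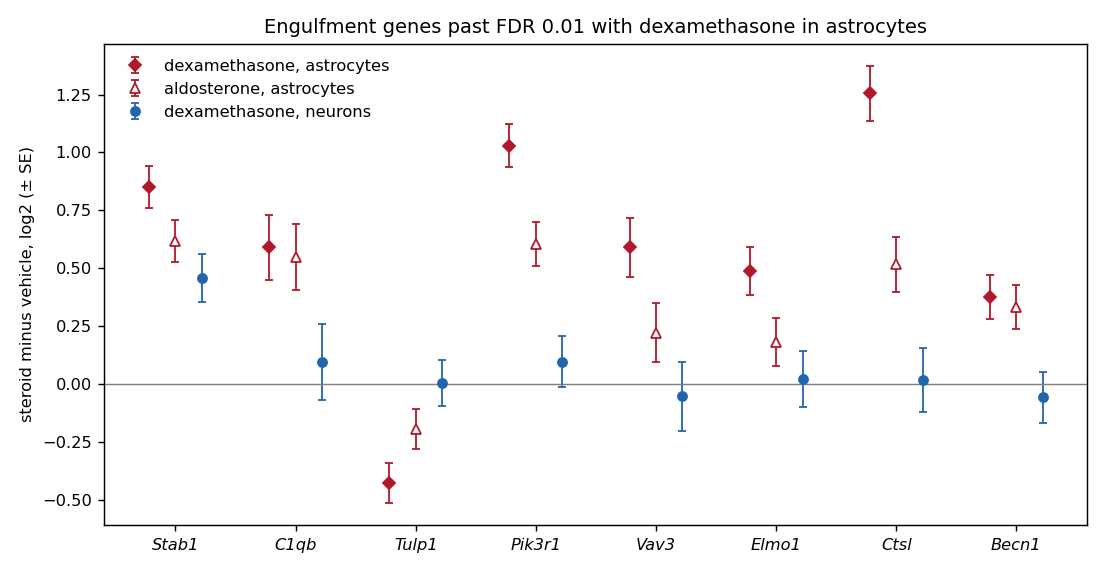
Steroid minus vehicle in log2 units with SE for the 8 engulfment genes that passed FDR 0.01 with dexamethasone in astrocytes, shown for dexamethasone and aldosterone in astrocytes and for dexamethasone in neurons. Ctsl and Pik3r1 stand at 1.25 and 1.03 with dexamethasone in astrocytes, Tulp1 has mean readings under 7.5 throughout, and Stab1 is the gene farthest from 0 in neurons, at 0.46.

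The genes whose readings ran closest to Mertk over the 24 astrocyte arrays were found among 9587 genes with a mean of at least 8. They were Mapk4 (Pearson r = 0.979), Klf9 (0.975), Sult1a1 (0.973), Pdk4 (0.971), the transcript 9530064J02 (0.970), Mbd1 (0.969), Acsl3 (0.964) and Bcat1 (0.964). The arrays share their treatments, and with group means taken out r ranged from -0.06 for Acsl3 to 0.60 for Mbd1, so the likeness lies mainly between groups. Klf9 encodes a transcription factor known as a glucocorticoid receptor target, and Pdk4 encodes a kinase that restrains pyruvate oxidation. Klf9 rose by 2.43 with dexamethasone and 1.47 with aldosterone in astrocytes, and Pdk4 rose by 3.55 and 2.37 for the same steroids. Because the genes were chosen for likeness to Mertk over these same treated arrays, such rises follow from the choice. The levels of the 8 genes with vehicle did not share the Mertk preference for astrocytes throughout, since the astrocyte minus neuron difference was -4.56 for Bcat1, the cytosolic branched-chain aminotransferase, and -2.52 for 9530064J02.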

How the data were processed

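Messenger RNA was measured on 48 bead arrays, and 46 were used. The deposited values are log2 intensities, which the authors had background-subtracted and quantile-normalized according to their methods, rounded to 2 decimals. Which steps gave the deposited table is not stated. A second deposited table, of non-normalized log2 values, was used only to find the chips. Just 1 of the 48 column identifiers pointed to the sample with the nearest values, and the columns were therefore matched to samples by value (rank correlation at least 0.984 for a matched pair and at most 0.946 for an unmatched one). Each of the 8 chips then carried all 6 treatments of a single cell type under a single replicate number.

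Probes were named through the platform annotation with current symbols, which left 10449 of 46174 unnamed. A gene outside the 8 members is represented by its probe of highest mean. Group means were fitted to all 46 arrays with limma 3.58.1 in R 4.3.3 (34 residual and 11.4 prior degrees of freedom), with Benjamini-Hochberg adjustment over all probes within each comparison and a threshold of FDR 0.01. The fit was tested on simulated data with independent arrays, which held no deviation shared by same-numbered arrays. Tables used Python 3.11.15 and pandas 2.3.3. Replicates of a group correlated at 0.990 to 0.996 over all probes. Array precision is limited by the number of arrays. The files hold no detection p-values.

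Same-numbered arrays deviated together from their group means, in 60 of 60 astrocyte pairs (r 0.115 to 0.325) and 51 of 51 neuron pairs (0.130 to 0.564). A fit with the replicate number as a block was therefore run as an alternative. The main fit holds no such block, so its SEs, intervals and p-values do not use this pairing. The blocked value is given where it changes a call. Alternatives were all 48 arrays, the replicate block and, as a random block, the chip named by the identifiers. That block is not the chip found by value, since nearly all identifiers pointed to other samples. Other settings were quantile normalization within a cell type, a median shift and a filter on dim probes (a mean of 8 in a group). A separate fit for each cell type, a trended prior, the methods' t-test, each array left out and other probes of a gene were also used. One leave-out setting was singled out after seeing the data.

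The members and the gene and marker lists were chosen with earlier results of these data known. Named were all member probes, listed engulfment genes past the threshold (at most 8 for each list and comparison), the 8 genes most correlated with Mertk, and label-check genes. Some listed genes are not reported here. Promoter windows are from RefSeq on GRCm38.p6, where 7 of the 8 members were looked up. Megf10 is not shown.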

Additional observations from a re-analysis of the deposited data

Results flagged for a closer look

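Of 110 groups of 4 arrays tested for an array far from the other 3 (11 member probes in 10 groups), 5 held one, and chance alone finds about 1 in 20. The dimmer Mertk probe read 8.24 on array 3 of progesterone astrocytes, against 7.61 to 7.64 on the others. The brighter Mertk probe read 9.12 on array 2 of dihydrotestosterone neurons, against 8.46 to 8.55, and Pros1 read 9.66 on the same array, against 9.09 to 9.18. The brighter Megf10 probe read 9.90 on array 2 of aldosterone neurons, against 10.38 to 10.40. The brighter Mfge8 probe read 13.54 on array 3 of vehicle astrocytes, against 13.85 to 13.91.

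The dim Megf10 probe ILMN_1214887, at 7.36 or lower on every array, differed from vehicle by 0.32 with aldosterone in astrocytes and by -0.15 in neurons, and neither passed the test (limma adjusted p = 0.0358 and 0.999 in that order). All aldosterone arrays lay above vehicle in astrocytes, as for 2.8% of all probes, and below vehicle in neurons, as for 1.85%. The difference between the cell types was 0.47, with a limma adjusted p of 0.118, so it did not pass the test.

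The left-out neuron array labelled vehicle read 10.15 for Mertk, against 8.54 to 8.83 on the vehicle arrays used, and 10.47 for Megf10, against 10.02 to 10.19. The left-out array labelled dexamethasone read 9.24 for Mertk, which is above the vehicle arrays used and below the dexamethasone ones.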

How the results depend on the processing

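Dexamethasone in astrocytes raised the brighter Mertk probe in all settings run on it. The dimmer probe gave 0.58 there without a call, 0.15 with aldosterone in astrocytes and 0.59 with dexamethasone in neurons. With all 48 arrays the neuron dexamethasone difference of Mertk was 0.90 and 0 member probes were called, and 0 were called between aldosterone and dihydrotestosterone or estradiol in astrocytes, where Mertk stayed at 0.73 and 0.74 without a call. The methods' t-test gave 0 calls for Mertk with aldosterone in astrocytes (0.99), dexamethasone in neurons (1.50) and those same 2 pairs.

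Progesterone in astrocytes kept 0.60 and gained the call (1 member probe) with the replicate block, the filter on dim probes and the separate fit. With dexamethasone in astrocytes the replicate block called 3 member probes and quantile normalization within the cell type 2. The pairing changed no other call among the members.

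Leaving out 1 array at a time, the member count was 0 to 1 for aldosterone in neurons (Mertk 0.39 to 0.69, called only without array 3) and 1 to 2 for dexamethasone in neurons.

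Small Mertk differences changed sign. With all 48 arrays progesterone in neurons was -0.25 and dihydrotestosterone -0.36. With single arrays left out, dihydrotestosterone in neurons ranged from -0.13 to 0.105, the dexamethasone effect in astrocytes minus that in neurons from -0.081 to 0.064, and dihydrotestosterone minus estradiol in astrocytes from -0.034 to 0.049. With the chip named by the identifiers as a random block the last 2 were -0.012 and -0.022. A dim Megf10 probe gave -0.19 between cell types and a dim Gulp1 probe 0.18 with dexamethasone in neurons. The cause of these changes was not tested. Most probes are dim, with 67.9% under a mean of 8, which limits what can be seen for the second Mertk and Axl probes and for Gulp1 in neurons.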
